A study of Mus musculus with 2 samples.

Results

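Leukocyte miRNAs were followed in neonatal mouse adrenal tissue. They comprise 6 of the 2202 miRNA genes counted: Mir142, Mir223, Mir150, Mir155, Mir146 (which encodes miR-146a) and Mir146b. They were found by gene name in the GENCODE M21 annotation, by a rule that uses no measured value, although the list itself was drawn up with earlier results of these data known. The tissue was the adrenal gland of female B6CASTF1/J mice at 4 days of age, untreated as far as the labels state. B6CASTF1/J is the first-generation hybrid of C57BL/6J and CAST/EiJ. A total of 2 libraries formed 1 group, with biological replicate numbers 1 and 2. The labels number the females differently but list the same donor identifier for both. The series has no second condition, so the results are levels, ratios between the genes and differences between these libraries.

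A miRNA gene is transcribed into a hairpin precursor, from which a mature strand of short length is cut and loaded into an Argonaute protein. The mature strand represses mRNAs that pair with its seed, the bases near its 5′ end. In blood, Mir142 is active across the hematopoietic lineages. Mir223 is typical of myeloid cells, above all neutrophils, and is also present in platelets. Mir150 is typical of mature B, T and natural killer lymphocytes and targets Myb. Mir155 is induced when lymphocytes and macrophages are activated. Mir146 is induced through NF-kB and dampens Toll-like receptor signalling by targeting Irak1 and Traf6. Mir146b lies at another locus and has the same seed on its 5p strand. Mir146 is not restricted to leukocytes and is also known from endothelial cells.

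The mature sequences show which of these genes can be told apart by short reads. They are from RefSeq (GRCm38.p6), in which all 6 genes had at least 1 mature entry and 11 mature sequences in all. For Mir150 only the 3p strand was listed there. Its 5p strand is therefore not printed, and the seed search below does not cover it. Capitals mark the seed, bases 2 to 8 from the 5′ end. The miR-146 pair is shown because its 2 members share a seed, and miR-142b because it lies opposite miR-142a-3p.
miR-223-3p: uGUCAGUUugucaaauacccca
miR-150-3p: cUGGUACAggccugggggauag
miR-142a-5p: cAUAAAGUagaaagcacuacu
miR-142a-3p: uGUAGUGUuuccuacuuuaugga
miR-142b: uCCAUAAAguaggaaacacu
miR-155-5p: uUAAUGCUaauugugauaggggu
miR-146a-5p: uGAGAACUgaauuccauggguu
miR-146b-5p: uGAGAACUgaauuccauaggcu

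The seeds of these 11 sequences were searched among the 1679 mature miRNAs of that table. Of them, the seed GAGAACU of miR-146a-5p and miR-146b-5p was the only one found in more than 1 mature miRNA. These 2 strands of 22 bases are identical at 20 positions. They differ by G18A and U21C, counted from the 5′ end, with the miR-146a-5p base first. Their first 17 bases are the same. MiR-142b is the reverse complement of bases 4 to 23 of miR-142a-3p along its full 20 bases. Reads of these strands can therefore be told apart only by strand. A search of the GENCODE M21 hairpin sequences for runs of 18 bases shared with any other counted hairpin found Mir142b opposite Mir142, and found Mir146 and Mir146b in each other. No such run was found for Mir223, Mir150 or Mir155.

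The genes lie at separate loci (GRCm38, also called mm10). Mir142 (chromosome 11, plus strand, 87756864 to 87756927) is intronic to its noncoding host gene Mir142hg. Mir223 (chromosome X, plus strand, 96242817 to 96242926) falls within an exon of the noncoding gene F630028O10Rik. Mir150 (chromosome 7, plus strand, 45121757 to 45121821) overlaps no other annotated gene. The nearest, Gm45552, lies 95 bases away. Mir155 (chromosome 16, plus strand, 84714140 to 84714204) falls within an exon of its host noncoding gene Mir155hg. Mir146 (chromosome 11, minus strand, 43374397 to 43374461) is intergenic, with Gm12148 at a distance of 11020 bases. Mir146b (chromosome 19, plus strand, 46342762 to 46342870) is intronic to Mfsd13a.

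Depth was 4960537 reads on miRNA genes in replicate 1 and 4506482 in replicate 2. Levels are given in CPM (counts per 1000000 of these reads), with 95% Wilson intervals that cover counting error only. Of the 2202 genes, 377 had at least 10 reads in both libraries, and these were tested. Among miRNAs known from the adrenal gland's own cells, Mir375 and Mir7b of neuroendocrine cells and all 5 listed miRNAs of steroidogenic cells were among them. No miRNA of these lists is specific to the adrenal gland.

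All 6 leukocyte miRNA genes had reads in both libraries, and 5 of them passed the minimum of 10. Together they took 0.197% of the miRNA reads in replicate 1 (9789 reads, interval 0.193 to 0.201) and 0.224% in replicate 2 (10089 reads, interval 0.220 to 0.228), a mean of 0.211% ± 0.0188 (SD, n = 2). In bulk tissue, fewer cells of a type and less RNA per cell cannot be told apart. The order of mean levels was Mir146, Mir142, Mir223, Mir150, Mir155 and Mir146b. The ranges of Mir142 and Mir223 over the libraries overlapped, but Mir142 was the higher one within each library by more than counting error. Reads of Mir142 were 1.26 times those of Mir223 in replicate 1 (exact interval 1.19 to 1.34). In replicate 2 they were 1.19 times those of Mir223 (exact interval 1.13 to 1.26). With n = 2 this order was not tested against the spread between animals. Mir146 was above Mir142 in both libraries, but in replicate 2 by less than counting error. The steps from Mir223 to Mir150, to Mir155 and to Mir146b were each wider than the spread of either gene. Levels of different genes are compared as reads per gene, with no length scaling, since the mature strands printed are of nearly the same length. Whether different sequences entered the libraries equally well was not tested, so orders and ratios between genes are those of reads.

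**Figure D1:**
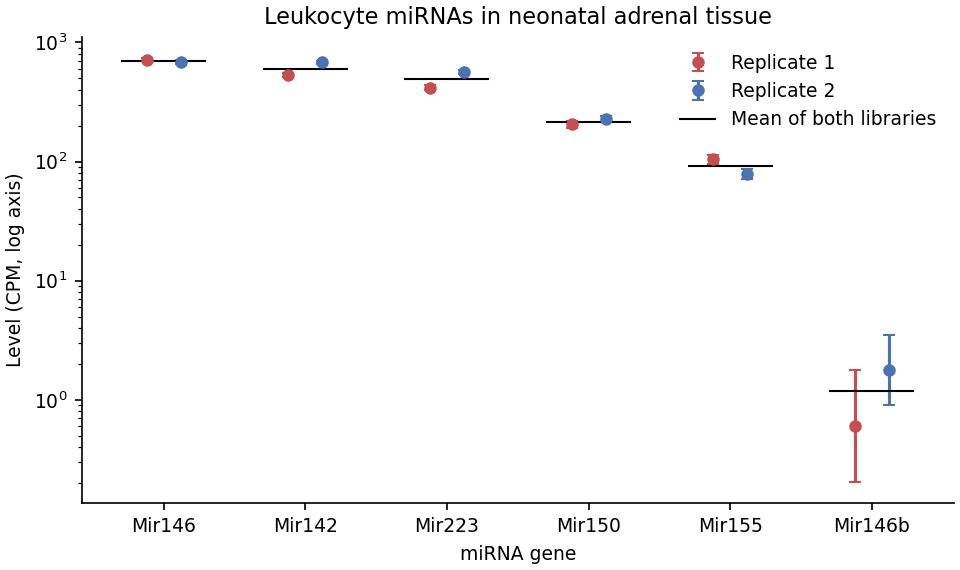
Level of each leukocyte miRNA gene in CPM (log axis), with replicate 1 in red, replicate 2 in blue, 95% Wilson intervals of counting error as bars and the mean as a black line. Mir146, Mir142 and Mir223 lie between 418 and 717 CPM, Mir150 and Mir155 lie lower, and Mir146b is near 1.19 CPM.

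Mir142, the miRNA of all hematopoietic lineages, had 2622 reads in replicate 1 and 3061 in replicate 2. This was 529 CPM (interval 509 to 549) in replicate 1 and 679 CPM (interval 656 to 704) in replicate 2, a mean of 604 CPM ± 107 (SD, n = 2). It was lower in replicate 1 by more than counting error, and its rank among all genes was 124 there and 99 in replicate 2. The gene on the opposite strand, Mir142b, had 0 reads in both libraries, which allows up to 0.605 CPM in replicate 1 and 0.666 CPM in replicate 2. Every read on this locus was thus on the strand of Mir142. Mir142 has a count only because the reads were counted by strand. In the column that ignores strand its count was 0 in both libraries, where reads on 2 overlapping genes are not assigned.

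Mir223, the myeloid member, had 2073 reads in replicate 1 and 2566 in replicate 2. Its level was 418 CPM (interval 400.3 to 436) in replicate 1 and 569 CPM (interval 548 to 592) in replicate 2, a mean of 494 CPM ± 107 (SD, n = 2). Like Mir142 it was lower in replicate 1, with intervals that did not overlap. It ranked 136 among all genes in replicate 1 and 110 in replicate 2.

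Mir150, the lymphoid member, had 1016 reads in replicate 1 and 1022 in replicate 2. Its level was 205 CPM (interval 193 to 218) in replicate 1 and 227 CPM (interval 213 to 241) in replicate 2, a mean of 216 CPM ± 15.5 (SD, n = 2). The intervals of the unscaled levels overlapped, and the libraries were closer in Mir150 than in Mir142 or Mir223.

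Mir155, induced on activation of lymphocytes and macrophages, had 517 reads in replicate 1 and 354 in replicate 2. Its level was 104 CPM (interval 95.6 to 114) in replicate 1 and 78.6 CPM (interval 70.8 to 87.2) in replicate 2, a mean of 91.4 CPM ± 18.2 (SD, n = 2). It was the only one of the 5 tested members that was called higher in replicate 1.

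Mir146, the member of highest level and one induced through NF-kB, had 3558 reads in replicate 1 and 3078 in replicate 2. Its level was 717 CPM (interval 694 to 741) in replicate 1 and 683 CPM (interval 659 to 708) in replicate 2, a mean of 700.1 CPM ± 24.2 (SD, n = 2). The intervals overlapped, and its SD relative to the mean, 3.46%, was the smallest of the 6 genes. Mir146b, which shares its seed, had 3 reads in replicate 1 and 8 in replicate 2, or 0.605 CPM (interval 0.206 to 1.78) and 1.78 CPM (interval 0.900 to 3.50). Mir146 had 1186 times the reads of Mir146b in replicate 1 (95% exact interval 405 to 5754) and 385 times in replicate 2 (195 to 892). Those intervals overlap, and Mir146b was under the minimum for a test. Multimapping reads were left out of all gene counts. The longest run shared by the 2 hairpins is 21 bases, of which 17 lie in the 5p strand. A read confined to that run, or to the first 17 bases of either miR-146-5p strand, could be counted for neither gene.

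**Figure D2:**
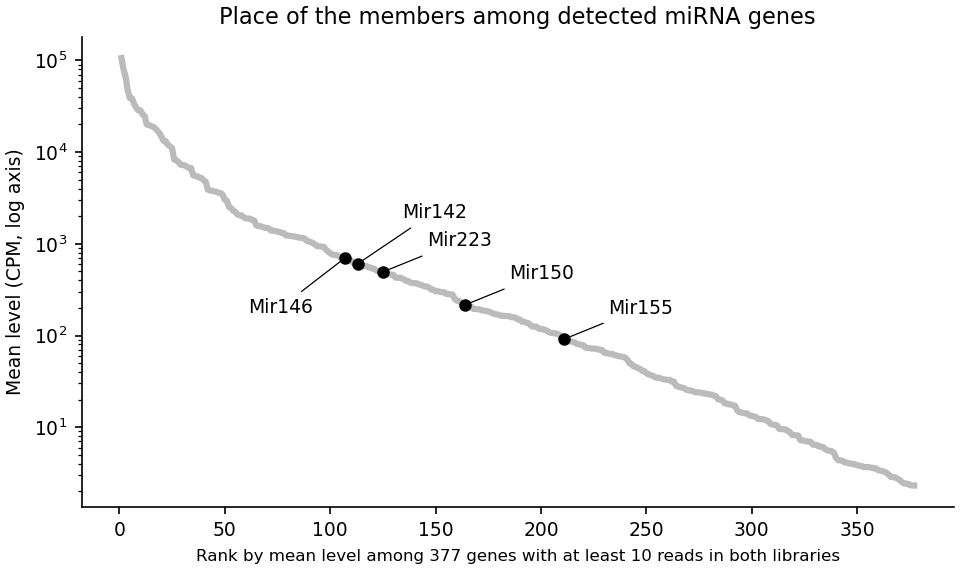
Mean level in CPM (log axis) of the 377 genes with at least 10 reads in both libraries, in order of rank (grey line), with the 5 tested leukocyte miRNAs as black points. Mir146, Mir142, Mir223 and Mir150 lie above the median of all tested genes, 149.9 CPM, and Mir155 lies below it.

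Differences between the libraries were measured as the log2 ratio of replicate 1 over replicate 2, on reads scaled by TMM (a trimmed mean over all genes). An exact two-sided binomial test of each gene's reads was adjusted by Benjamini-Hochberg over the 377 genes. It compares 2 libraries, takes counting error as the only error and says nothing of a condition. By this test 68.2% of all tested genes differed, 32.6% higher in replicate 1 and 35.5% higher in replicate 2. Against this background, 4 of the 5 tested members differed, 1 higher in replicate 1 and 3 in replicate 2.

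Mir223 had the widest difference, at a log2 ratio of -0.58 (95% exact interval -0.66 to -0.49, adjusted p = 1.45e-41, exact binomial test), or 1.49-fold lower in replicate 1. Mir142 followed at -0.49 (interval -0.57 to -0.42, adjusted p = 2.5e-37, exact binomial test), or 1.41-fold lower in replicate 1. Mir150 was at -0.28 (interval -0.40 to -0.15, adjusted p = 2.78e-05, exact binomial test). With TMM scaling the lymphoid member thus went the same way as the myeloid one, by a smaller ratio. The difference of Mir150 depended on the scaling, as its reads were 1016 in replicate 1 and 1022 in replicate 2. With scaling by total miRNA reads its ratio was -0.15 (adjusted p = 0.0338, exact binomial test), against -0.45 for Mir223.

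Mir155 was at 0.28 (interval 0.08 to 0.48, adjusted p = 0.00851, exact binomial test), or 1.21-fold higher in replicate 1. Mir146 was at -0.06 (interval -0.13 to 0.01) and was not called (adjusted p = 0.122, exact binomial test). Its ratio had the other sign, 0.07, with scaling by total miRNA reads. The median of the 5 tested members was -0.28, beside -0.04 over all tested genes.

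These differences were ordinary in size for this pair of libraries. All 5 tested members were within 1.5-fold, as were 236 of the 377 genes (62.6%). A smaller ratio in size than that of Mir223 was found for 62.1% of tested genes, than that of Mir142 for 53.8%, and than that of Mir150 for 34.2%. The corresponding shares were 33.7% for Mir155 and 9.55% for Mir146. Set against the general spread of the pair, with edgeR's exact test and a biological coefficient of variation of 0.436, no member was called. Of all tested genes 1.86% were called by that test (7 genes), and 24 had an unadjusted p under 0.05, none of them a member. Unadjusted p-values of the members ran from 0.529 for Mir223 to 0.948 for Mir146 in edgeR's exact test. The dispersion of that test comes from the same pair of libraries.

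**Figure D3:**
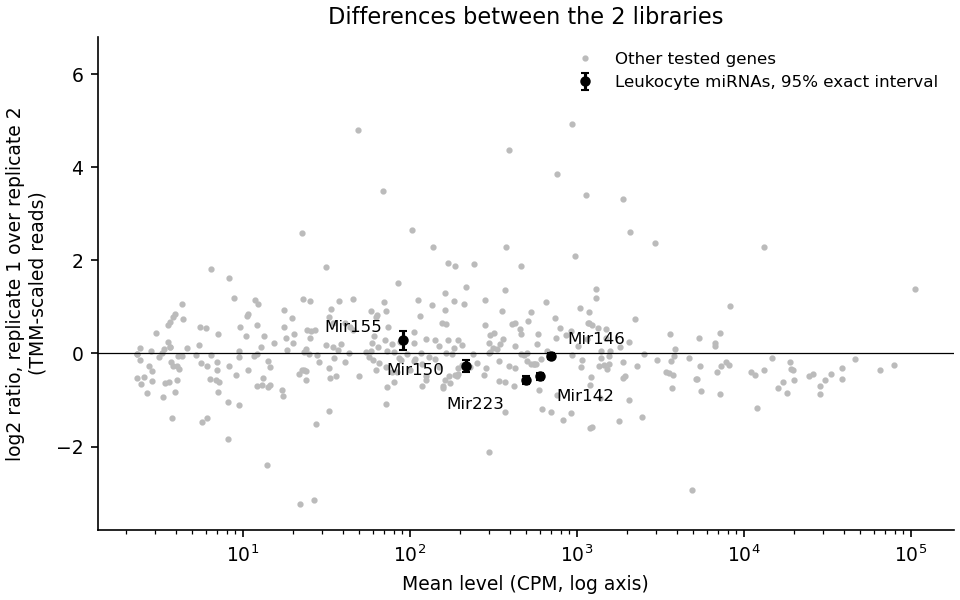
Log2 ratio of replicate 1 over replicate 2 (TMM-scaled reads) against mean level in CPM (log axis) for the 377 tested genes, with the 5 tested leukocyte miRNAs in black and their 95% exact intervals. The members lie between -0.58 and 0.28, in the middle of the grey points.

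Reads of the myeloid member outnumbered those of the lymphoid one in both libraries. Reads of Mir223 were 2.04 times those of Mir150 in replicate 1 (95% exact interval 1.89 to 2.20) and 2.51 times in replicate 2 (2.33 to 2.70), a mean of 2.28 ± 0.333 (SD, n = 2). The ratio within a library needs no scaling for library size. It was lower in replicate 1, by a factor of 0.813, and the intervals did not overlap, so the difference between these libraries was larger than counting error. With n = 2 it was not tested against the spread between animals.

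Relative to Mir142, the member shared by all lineages, Mir223 was nearly level between the libraries. The ratio of Mir223 to Mir142 was 0.791 in replicate 1 (interval 0.746 to 0.838) and 0.838 in replicate 2 (0.795 to 0.884). Of the 10 pairs among the 5 tested members, this was the only pair whose intervals overlapped. The ratio of Mir150 to Mir142 was 0.387 in replicate 1 (interval 0.360 to 0.417) and 0.334 in replicate 2 (0.311 to 0.358).

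Relative to Mir142, Mir146 and Mir155 were both higher in replicate 1, although Mir146 itself was not called between the libraries. The ratio of Mir146 to Mir142 was 1.36 in replicate 1 (interval 1.29 to 1.43) and 1.01 in replicate 2 (0.956 to 1.06). The ratio of Mir155 to Mir142 was 0.197 in replicate 1 (interval 0.179 to 0.217) and 0.116 in replicate 2 (0.103 to 0.129), which is 1.70 times as high in replicate 1. The ratio of Mir155 to Mir223 differed more than that of any other pair of tested members, at 0.249 in replicate 1 (interval 0.226 to 0.275) and 0.138 in replicate 2 (0.123 to 0.154).

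As shares of all reads on the 6 genes, Mir146 took 36.3% in replicate 1 and 30.5% in replicate 2. Mir142 took 26.8% in replicate 1 and 30.3% in replicate 2, and Mir223 took 21.2% and 25.4%. Mir150 took 10.4% in replicate 1 and 10.1% in replicate 2, so that the lymphoid member's share was almost the same. Mir155 took 5.28% in replicate 1 and 3.51% in replicate 2.

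**Figure D4:**
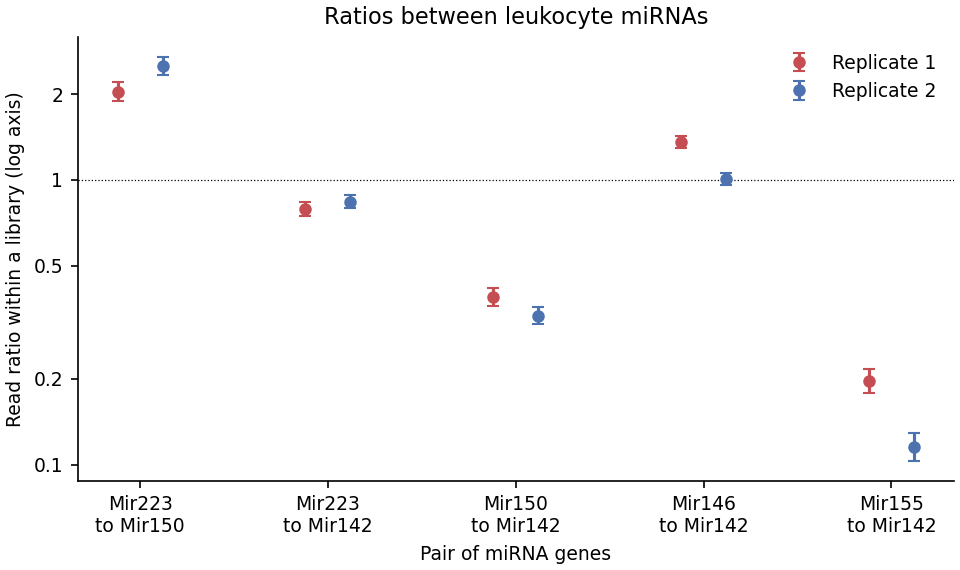
Ratio of reads of a pair of leukocyte miRNA genes within a library (log axis), with replicate 1 in red, replicate 2 in blue and 95% exact intervals of counting error. Mir223 to Mir150 is above 2 in both libraries, the intervals of Mir223 to Mir142 overlap, and Mir146 and Mir155 are higher relative to Mir142 in replicate 1.

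Further miRNAs of the same lineages gave a mixed picture. The myeloid list held Mir223, Mir511 (in an intron of the macrophage receptor gene Mrc1) and Mir147 (induced by Toll-like receptors in macrophages). Its 2 tested genes were both higher in replicate 2, as were 35.5% of all tested genes. Mir511 had 32 reads in replicate 1 and 57 in replicate 2, with a log2 ratio of -1.10 (interval -1.77 to -0.45, adjusted p = 0.000987, exact binomial test). Mir147 had 13 reads in replicate 1 and 9 in replicate 2 and was not tested. The summed level of the list was 427 CPM in replicate 1 and 584 CPM in replicate 2, nearly all of it from Mir223.

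All 8 genes of the lymphoid list (Mir150, Mir342 and the Mir181 genes) were tested. The shares called over all tested genes were 32.6% higher in replicate 1 and 35.5% higher in replicate 2. In replicate 1, 3 of the 8 lymphoid genes were called higher, in replicate 2, 2 were, and 3 had no call. Their median log2 ratio was 0.13, beside -0.04 over all tested genes. With scaling by total miRNA reads 5 were higher in replicate 1 and 1 in replicate 2, and Mir342 changed its sign. Mir342 was at 1600.4 CPM in replicate 1, against 1513 in replicate 2. Mir181c was at 1467 CPM in replicate 1, against 858 in replicate 2, and Mir181d at 1074 CPM, against 1079. Each is above Mir150, and these miRNAs are known from many tissues besides lymphocytes. Copies of Mir181a and Mir181b at other loci share runs of 18 bases, which makes the counts of 4 of the 8 genes uncertain.

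Of the 10 genes listed as NF-kB responsive or induced on activation, 5 were tested. Mir155 was higher in replicate 1, Mir21a and Mir132 were higher in replicate 2, and Mir146 and Mir212 had no call, with a median of -0.06. The call of Mir132 was lost, and its sign changed, with scaling by total miRNA reads. Mir21a, at 18470.2 CPM in replicate 1 and 19306 CPM in replicate 2, is abundant in most tissues and made up nearly all of the list's reads. Mir9-2 had 0 reads in both libraries.

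Markers of other cell types also differed between the libraries by the binomial test, in both directions, as did 68.2% of all tested genes. With edgeR's exact test, the 5 epithelial genes were called, all higher in replicate 1, and 0 genes of the other lists, the myeloid, lymphoid and NF-kB-responsive ones included. Of those other genes, Mir451a, Mir144 and Mir206 had an unadjusted p under 0.05 in edgeR's exact test (0.0471, 0.0476 and 0.00275). Erythroid miRNAs, which mark red cells in blood, summed to 1059 CPM in replicate 1 and 287 CPM in replicate 2. Of the 4 erythroid genes counted, 3 were tested. Mir451a and Mir144 were higher in replicate 1 (each 3.66-fold), and Mir486, whose hairpin shares a run with Mir3107, was higher in replicate 2. Mir451b was at 0 reads in both libraries. Mir223 and Mir142 were lower in the library in which Mir451a and Mir144 were higher. Neither list went 1 way throughout, and a link between them was not tested. Mir486 (log2 ratio -0.58), with only 101 reads in replicate 1 and 125 in replicate 2, went the way of Mir223 and Mir142. Mir155 (0.28) went the way of Mir451a and Mir144.

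The 5 epithelial miRNAs, all tested and all higher in replicate 1, summed to 4224 CPM in replicate 1 and 192 CPM in replicate 2. The endothelial pair summed to 156836 CPM in replicate 1 and 54711 CPM in replicate 2, nearly all from Mir126a, and its antisense partner Mir126b was not tested. The skeletal muscle pair summed to 1241 CPM in replicate 1 and 8633 CPM in replicate 2, with Mir206 tested and higher in replicate 2. The part of any of these lists in the ratios of the leukocyte miRNAs was not tested. With Mir126a left out of the total, the 6 members together took a mean of 0.235% ± 0.00197 (SD, n = 2) of the remaining reads. The small SD of this sum does not hold for each member. With this total the SD fell for Mir142 (107 to 64.8 CPM), Mir223 (107 to 75.5 CPM) and Mir150 (15.5 to 2.12 CPM). It rose for Mir146 (24.2 to 90.6 CPM) and Mir155 (18.2 to 28.6 CPM).

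**Figure D5:**
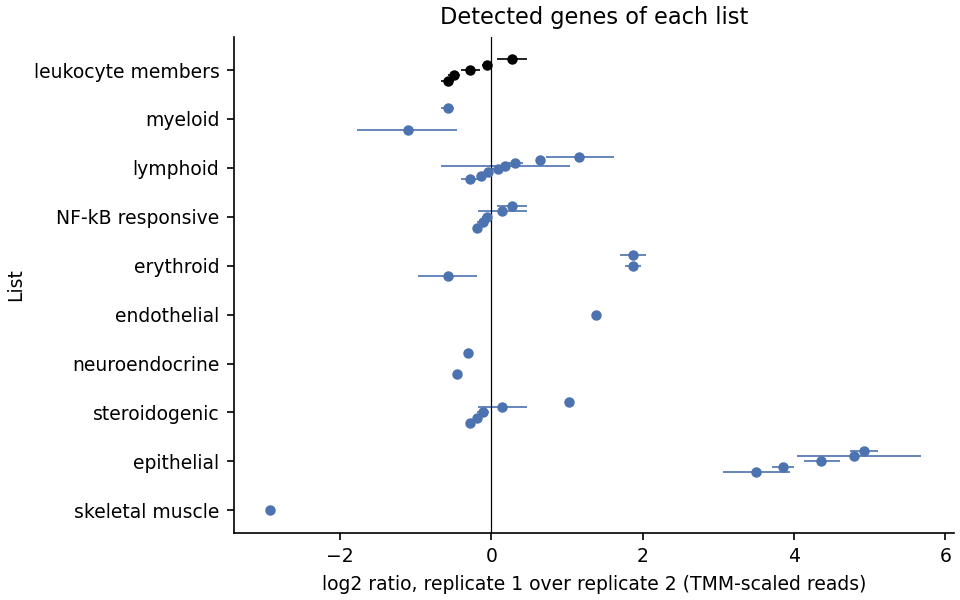
Log2 ratio of replicate 1 over replicate 2 (TMM-scaled reads) of the tested genes in each list, with 95% exact intervals of counting error and the leukocyte miRNAs in black at the top. Leukocyte miRNAs lie between -0.58 and 0.28, whereas 2 of 3 erythroid genes and all 5 epithelial genes lie above 1 and Mir206 of skeletal muscle lies at -2.93.

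The genes nearest to each member in level over both libraries were found by distance on the log2 CPM scale, over 2 libraries only. Mir598 (distance 0.21) and Mir501 (0.23) were nearest to Mir142, and Mir329 (0.30) and Mir300 (0.31) to Mir223. Mir543 (0.11) and Mir125b-2 (0.13) were nearest to Mir150, Mir193b (0.08) and Mir30c-2 (0.24) to Mir155, and Mir137 (0.04) and Mir467d (0.05) to Mir146. No member was among the nearest genes of another.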

How the data were processed

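The authors deposited, for each library, raw read counts per miRNA gene. The build was mm10 and the annotation GENCODE M21, per the file headers. The aligner and counter were not given in the sources used here. The tables have no column names. From the values, their 3 count columns hold all reads irrespective of strand, those on the gene's own strand (used here) and those opposite to it. The 4 leading rows name no gene and were left out of totals. They held 57.6% of all reads in replicate 1 and 60.1% in replicate 2, of which reads mapping to several places were 25.9% and 27.8% of all reads. The 5p and 3p strands of a hairpin share 1 count, and a CAST/EiJ base that differs from the reference can lower a count. All 2202 identifiers matched GENCODE M21.

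CPM values, Wilson and exact intervals and binomial tests were computed with scipy 1.17.1, and TMM factors (1.05 and 0.956, over the whole table) and the exact test with edgeR 4.0.16. The alternatives were DESeq2 1.42.0 size factors, total reads, the column for either strand, no filter and the other totals. The binomial test was tested on simulated data that held counting error only, which does not show how it behaves on the wider spread of these libraries. PCR reads are not independent molecules, so intervals and floors (3 reads) cover counting error only. The members and lists were chosen with earlier results of these data known. Named genes were the members, the 2 nearest tested genes of each, antisense and same-seed genes, and up to 3 leading genes per list. Mir212, Mir451b and Mir9-2 were named after their values were seen.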

Additional observations from a re-analysis of the deposited data

How the results depend on the processing

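The signs of the log2 ratios of Mir142, Mir223, Mir150 and Mir155 and their calls by the binomial test were the same under total reads, DESeq2 size factors, no filter and TMM factors from the tested genes (the last chosen after seeing the data), and for all but Mir142, which then has no reads, with the column for either strand. With edgeR's exact test the ratios were -0.49 for Mir142, -0.58 for Mir223, -0.28 for Mir150 and 0.28 for Mir155, none called (adjusted p of 1 each), so that 0 members were called higher in replicate 1 and 0 in replicate 2. No member had an unadjusted p under 0.05 in that test. Mir146 changed sign to 0.071 under total reads and 0.019 with TMM factors from the tested genes, without a call. Scaling by total reads adds 0.13 to every log2 ratio. The total without Mir126a was used for levels and shares only. With that total Mir150 was nearly level, at 241 CPM ± 2.12 (SD, n = 2), and slightly higher in replicate 1. The sign of its difference therefore depends on the scaling.

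With the column for either strand, mean levels were 0 CPM for Mir142, 257 for Mir150, 109.7 for Mir155 and 835 for Mir146, and the 6 genes took 0.179%. With all reads of the table as the total they were 248 CPM for Mir142, 202 for Mir223, 88.7 for Mir150, 37.8 for Mir155 and 288 for Mir146, and the 6 genes took 0.0865%. Without Mir126a in the total, Mir150 had 241 CPM, Mir146 787 CPM and the 6 genes 0.235%. These totals differ by construction.

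Leaving out 1 library gives the value of the other: 529 to 679 CPM for Mir142, 418 to 569 for Mir223, 205 to 227 for Mir150, 78.6 to 104 for Mir155, 683 to 717 for Mir146, 0.605 to 1.78 for Mir146b, 0.197% to 0.224% for the 6 genes and 2.04 to 2.51 for the ratio of Mir223 to Mir150. No paired analysis was possible because the series holds 1 group. Depth limits Mir146b most. Without a filter its log2 ratio was -1.68 (95% exact interval -4.23 to 0.37, adjusted p = 0.199, exact binomial test).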
